A study of Mus musculus with 4 samples.

Results

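The genes described here are those whose start carried a Ser2P signal in control cells and was listed at 0 in Carm1 KO cells. They were taken from a deposited table of transcription start sites (TSS) as the rows with a control value above 0 and a Carm1 KO value of exactly 0, which gave 152 genes of 3112. They are called control-only genes below. The opposite set, listed at 0 in control and above 0 in Carm1 KO cells, held 59 genes and is called Carm1 KO-only. A further 42 genes were at 0 in both conditions and 2859 were above 0 in both.

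The cells were mouse B16F10 melanoma cells that lacked Carm1 (genotype Carm1 KO) or were parental (control, genotype WT), grown in the same medium with no treatment named. Nascent RNA was profiled by mammalian native elongating transcript sequencing, in which micrococcal nuclease releases RNA polymerase II (Pol II) from chromatin and the short RNA it holds after immunoprecipitation is sequenced. Each condition had 1 library made with an antibody against Pol II phosphorylated at serine 2 of its carboxy-terminal domain (Ser2P) and 1 made with antibody clone 8WG16, which recognises that domain. For each library 3 sets of cells were pooled after the nuclease step, so no spread between replicates could be measured, no test of the conditions was run, and every value describes these 4 libraries only. How the knockout line was made, and from how many clones, is not given in the sources used here, and the targeted gene was not analysed here. Of 10 melanocyte markers 6 were listed, against 1 of 7 markers of other cell types (Cd68).

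Pol II is phosphorylated on its carboxy-terminal domain as it moves along a gene. Serine 5 phosphorylation marks polymerase near the start, and Ser2P, placed by kinases such as CDK9, CDK12 and CDK13, builds up as elongation proceeds and is highest toward gene ends, where it helps to recruit the cleavage and polyadenylation machinery. Carm1 is an arginine methyltransferase that methylates histone H3, coactivators and RNA-binding proteins. A Ser2P signal at a start is therefore normally low.

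The deposited values are linear ratios of Ser2P to another signal that the files do not name. A value of 0 means that a gene was listed at 0. It does not show that Ser2P was absent, because neither table gives read counts and the depth is unknown. Genes used by all cells, such as the translation factor gene Eif5a, were also listed at 0.

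Control-only genes had low start ratios in control cells. Their median was 0.0376, with quartiles at 0.0196 and 0.0754 and a range from 0.00506 to 0.514, and all genes above 0 in control had a median of 0.0841. Of the 152 genes, 91 lay below the lower quartile of those genes (0.0452), 30 between it and the median, 23 between the median and the upper quartile (0.162), and 8 above it. These values chose the genes and are given as a description. Among the 3011 genes above 0 in control, 5.05% were listed at 0 in Carm1 KO cells. Among the 2918 genes above 0 in Carm1 KO cells, 2.02% were listed at 0 in control.

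**Figure D1:**
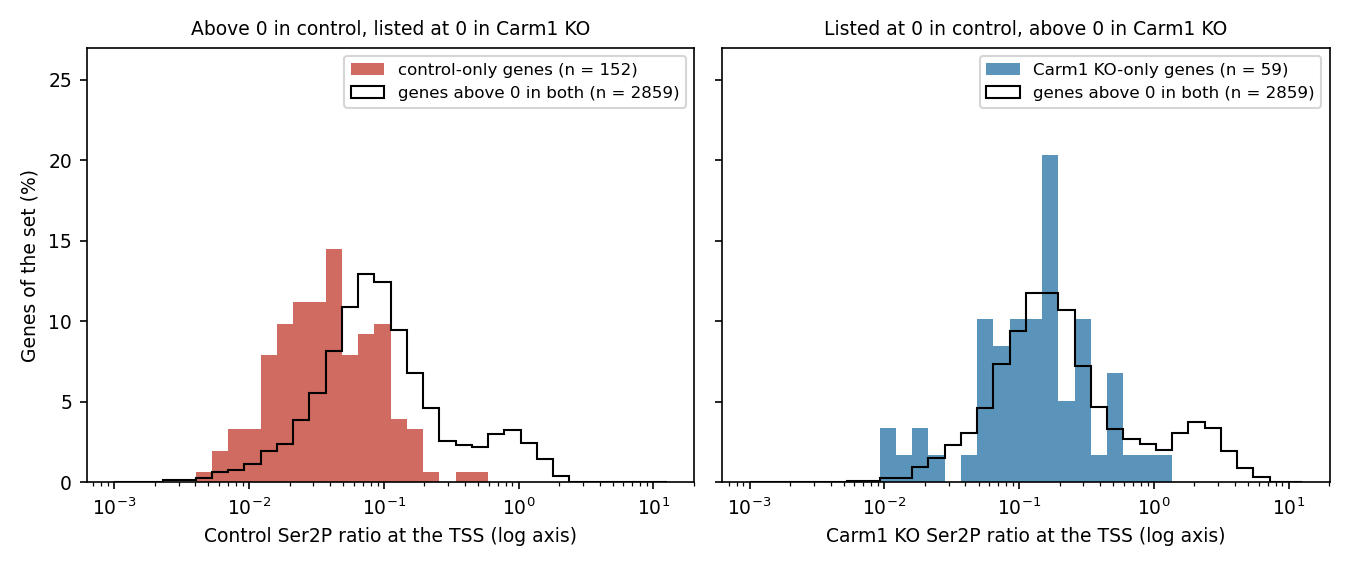
Distribution of the Ser2P ratio at the TSS (log axes) as a percentage of each set, with 152 control-only genes by their control ratio on the left and 59 Carm1 KO-only genes by their Carm1 KO ratio on the right. The black outlines are the 2859 genes above 0 in both. The control-only median, 0.0376, lies within the left outline, below the lower quartile of the outlined genes (0.0485). The distributions overlap, and no control-only gene exceeds 0.514.

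The share of genes listed at 0 in Carm1 KO cells varied with the control level. With the 3011 genes in 10 groups from low to high control ratio, it was 15.9% in the lowest group (48 of 302 genes, ratios up to 0.0238), 10.3% in the second and 6.98% in the third. In the 4 highest groups, with ratios from 0.103, it was 1.66%, 2.33%, 0.997% and 0%. No gene with a control ratio of 0.603 or more belonged to the set. In the opposite direction the share listed at 0 in control was 3.42% in the lowest and 0% in the highest group of Carm1 KO ratios, and lay between 1.03% and 3.42% in the groups between them.

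**Figure D2:**
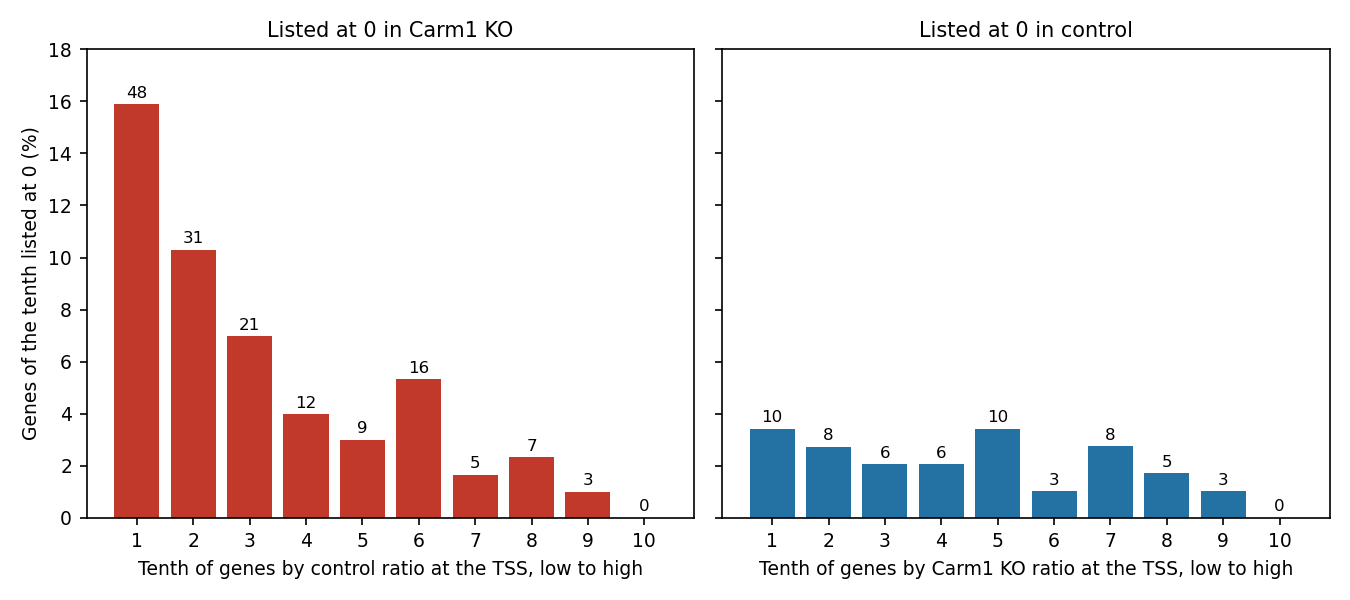
Percentage of genes listed at 0 at the TSS in Carm1 KO cells, in 10 groups of equal size by control ratio (left), and in control cells, in 10 groups by Carm1 KO ratio (right). The numbers over the bars are genes. On the left the bars run from 15.9% in the lowest group to 0% in the highest, and on the right none exceeds 3.42%.

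Many start ratios were simple fractions of a common value. The most frequent TES ratio in control was 1.03, and 60 of the 152 control-only genes (39.5%) had a start ratio equal to that value divided by a whole number, within 1e-09 of it. Of all 3011 genes above 0 in control 13.8% did. For 127 control-only genes (83.6%) the quotient became whole after multiplication by 5 or less, against 35.2% of all genes. Carm1 KO-only genes were set against 0.671, the value of 9 TES genes in Carm1 KO cells. Unlike 1.03 in control, it is the most frequent TES ratio of its condition divided by a whole number. A start ratio equal to 0.671 over a whole number was found in 12 of the 59 genes (20.3%). Of all genes above 0 in Carm1 KO cells 10.3% had one. There 49 of 59 genes (83.1%) became whole with a multiplier of 5 or less, against 32.2% of all genes above 0 in Carm1 KO cells. What these steps stand for is not stated in the files, and no read counts were derived from them. Of genes whose control ratio was 1.03 over a whole number 14.4% were listed at 0 in Carm1 KO cells, of those with a multiplier from 2 to 5 10.4%, and of the remaining 1951 genes 1.28%. Coarse values therefore moved together with membership, and their part in it was not tested.

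Ratios were often exactly shared. A total of 107 of the 152 control-only genes had the start ratio of another gene in the table and 35 that of another control-only gene. Sharing was not particular to them. By their Carm1 KO ratio, 54 of the 59 Carm1 KO-only genes shared a value with another gene in the table. For 26 of them it was another Carm1 KO-only gene. The share over all genes is not given here. Capn10, a calpain protease gene, Eif4enif1, which encodes a carrier of the cap-binding factor eIF4E, and Taf5l, a subunit of histone acetyltransferase complexes, all stood at 0.0857. Some genes with shared values are near-identical, overlapping or adjacent in the annotation. Hist2h3c1 and Hist2h3c2, both coding for histone H3, lie on chromosome 3 at 96246685 to 96248509 (plus strand) and 96238108 to 96239127 (minus strand, GRCm38). Both had a start ratio of 0.0935 in control, and both had TES ratios of 0.4995 in Carm1 KO and 0.304 in control cells. Near-identical copies like these can share reads, so they are uncertain as separate genes. Eef1akmt4, a lysine methyltransferase gene for elongation factor 1A, and the readthrough gene EEF1AKMT4-ECE2, which begins with it, likewise shared 0.166. Cpne1, which encodes a copine, and Rbm12, an RNA-binding protein gene, have annotated starts 13 bp apart on the same strand of chromosome 2 and shared 0.0267.

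The highest start ratios belonged to genes of varied function. Rnf32, which encodes a RING finger protein, was listed at 0 in Carm1 KO cells and had 0.514 in control. Minpp1, a phosphatase of inositol polyphosphates, had 0 in Carm1 KO and 0.441 in control cells. Pex10, a ubiquitin ligase of peroxisomal protein import, followed with 0 in Carm1 KO and 0.212 in control cells, and the kinetochore gene Ndc80 with 0 in Carm1 KO and 0.178 in control cells. These 4 genes lie above the upper quartile of all genes in control, as do Hnrnpul2 (0.171), an hnRNP U-like gene, both Eef1akmt4 entries (0.166) and Patl1 (0.162), a gene of mRNA decapping.

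The promoters of the 5 highest genes with a sequence and an annotated start, and the shared start of Cpne1 and Rbm12, are printed as 250 bases before to 50 after the start (RefSeq, GRCm38.p6, 5′ to 3′), because the set is defined by the signal at these sites. Capitals mark the letters of the TATA box (TATAAA), the CCAAT box (CCAAT), the GC box bound by Sp1 (GGGCGG) and the E-box (CACGTG) on either strand.
Rnf32, chr5:29195743-29196042, plus strand: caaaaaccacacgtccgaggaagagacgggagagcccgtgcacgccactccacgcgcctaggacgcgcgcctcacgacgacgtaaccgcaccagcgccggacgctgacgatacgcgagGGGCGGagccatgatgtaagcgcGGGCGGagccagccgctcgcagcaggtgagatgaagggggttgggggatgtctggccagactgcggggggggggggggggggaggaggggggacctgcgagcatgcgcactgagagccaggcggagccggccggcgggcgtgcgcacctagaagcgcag
Minpp1, chr19:32485519-32485818, plus strand: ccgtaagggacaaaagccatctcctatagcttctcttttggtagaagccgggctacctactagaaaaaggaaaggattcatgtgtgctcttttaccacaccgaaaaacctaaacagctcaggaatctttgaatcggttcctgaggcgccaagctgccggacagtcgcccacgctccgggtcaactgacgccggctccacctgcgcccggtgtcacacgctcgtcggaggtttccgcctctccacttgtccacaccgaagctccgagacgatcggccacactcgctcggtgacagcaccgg
Pex10, chr4:155066780-155067079, plus strand: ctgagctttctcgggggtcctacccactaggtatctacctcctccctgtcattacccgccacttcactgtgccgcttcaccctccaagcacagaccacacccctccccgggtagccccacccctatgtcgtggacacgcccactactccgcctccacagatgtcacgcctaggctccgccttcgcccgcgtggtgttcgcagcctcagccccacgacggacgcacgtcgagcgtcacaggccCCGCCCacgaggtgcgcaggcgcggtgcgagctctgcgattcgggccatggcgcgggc
Ndc80, chr17:71526808-71527107, minus strand: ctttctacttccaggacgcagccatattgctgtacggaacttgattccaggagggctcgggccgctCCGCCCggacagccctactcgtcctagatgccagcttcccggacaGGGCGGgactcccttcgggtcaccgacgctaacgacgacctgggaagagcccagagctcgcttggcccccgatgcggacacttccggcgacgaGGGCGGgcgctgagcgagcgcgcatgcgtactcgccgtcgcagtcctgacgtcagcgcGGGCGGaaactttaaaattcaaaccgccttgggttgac
Eef1akmt4, chr16:20611351-20611650, plus strand: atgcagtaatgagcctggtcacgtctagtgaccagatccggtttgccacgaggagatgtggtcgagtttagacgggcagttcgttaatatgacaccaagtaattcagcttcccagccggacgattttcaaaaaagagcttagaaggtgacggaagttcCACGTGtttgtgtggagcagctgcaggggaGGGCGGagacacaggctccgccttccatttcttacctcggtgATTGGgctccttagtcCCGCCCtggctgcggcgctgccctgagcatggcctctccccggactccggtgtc
Cpne1, chr2:156111916-156112215, minus strand: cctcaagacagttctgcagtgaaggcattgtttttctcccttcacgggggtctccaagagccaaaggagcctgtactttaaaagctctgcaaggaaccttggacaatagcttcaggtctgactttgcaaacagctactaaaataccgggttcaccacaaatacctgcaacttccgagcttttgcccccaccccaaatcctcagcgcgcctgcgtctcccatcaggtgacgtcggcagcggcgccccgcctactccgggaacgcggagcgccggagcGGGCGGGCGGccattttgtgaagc

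The sequences differ in these letters. The Ndc80 promoter holds GGGCGG, in one orientation or the other, 4 times, those of Rnf32, Eef1akmt4 and Cpne1 2 times each (overlapping in Cpne1), that of Pex10 once and that of Minpp1 not in this window. None of the 6 holds TATAAA. The Rbm12 entry of the table has the same 300 bases as that of Cpne1.

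A promoter was found for 130 of the 152 control-only genes and for 2524 of the 3112 genes. Its composition was close to that of the whole table. The median GC content was 61.2% in control-only genes and 61.7% in all genes, with a median of 23 CpG dinucleotides in both. GGGCGG was present in 67.7% of control-only promoters and 69.4% of all, CCAAT in 40.8% and 41.8%, TATAAA in 6.15% and 6.26%, and CACGTG, the E-box letters, in 9.23% and 13.4%. Over all 27025 genes of the RefSeq table outside the excluded chromosome, the shares were 35.7% for GGGCGG, 37.8% for CCAAT, 14.1% for TATAAA and 7.11% for CACGTG.

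For the opposite set, the promoters of the 2 genes with the highest Carm1 KO ratios among those with a sequence in the promoter table used here are given for comparison. Gpr162, Tcf4 and Gm15760 had higher ratios and are not printed. Wdr34 encodes a dynein intermediate chain and had 0.522 in Carm1 KO and 0 in control cells. Naxe, an epimerase that repairs damaged NADPH, had 0.503 in Carm1 KO and 0 in control cells.
Wdr34, chr2:30048830-30049129, minus strand: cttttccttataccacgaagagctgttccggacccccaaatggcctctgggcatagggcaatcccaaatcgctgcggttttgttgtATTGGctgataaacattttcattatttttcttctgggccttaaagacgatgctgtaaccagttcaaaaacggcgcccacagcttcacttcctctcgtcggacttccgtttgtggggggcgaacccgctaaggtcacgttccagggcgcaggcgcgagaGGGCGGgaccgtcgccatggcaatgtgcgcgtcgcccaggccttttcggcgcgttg
Naxe, chr3:88058446-88058745, minus strand: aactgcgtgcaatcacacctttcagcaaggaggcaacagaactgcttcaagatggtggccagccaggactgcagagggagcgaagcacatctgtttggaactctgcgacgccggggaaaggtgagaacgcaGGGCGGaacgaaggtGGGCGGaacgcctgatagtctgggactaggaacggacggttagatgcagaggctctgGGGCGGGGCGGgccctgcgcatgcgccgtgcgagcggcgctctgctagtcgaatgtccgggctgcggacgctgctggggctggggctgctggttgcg

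Both hold GGGCGG (1 time in Wdr34 and 4 times in Naxe, counting overlaps), as did 74.5% of the 47 Carm1 KO-only promoters.

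A start on the opposite strand was often close by. Of 150 control-only genes found in the GENCODE M21 annotation, 55 (36.7%) had the start of a protein-coding gene on the opposite strand within 1 kb, against 27.6% of all annotated genes of the table and 27.1% of Carm1 KO-only genes. For 42 of them the opposite gene was itself in the table. Of these 42 opposite genes, 40 were above 0 in both conditions, as were 2859 of all 3112 genes. A further 1 was at 0 in both and 1 was Carm1 KO-only. Of the 42, 0 were control-only, beside 152 of all 3112 genes. The 42 had a median start ratio of 0.148 in Carm1 KO and 0.0808 in control cells. Over all genes of the table the medians were close to these, at 0.166 in Carm1 KO and 0.0809 in control cells.

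Single pairs are given as examples and were chosen after their values were seen. The value of 0 for the control-only gene in Carm1 KO cells was fixed by the rule. Opposite genes with the lower ratio in Carm1 KO cells, such as Cutc, stand beside others with the higher ratio there. Cox15, needed for the haem A of cytochrome oxidase, was listed at 0 in Carm1 KO and had 0.0967 in control cells. Its opposite gene Cutc, whose start lies 4 bp away, had 0.0805 in Carm1 KO and 0.186 in control cells. Derl2, which exports misfolded proteins from the endoplasmic reticulum, was at 0 in Carm1 KO and 0.129 in control, while Mis12, a kinetochore gene 230 bp away, had 0.179 in Carm1 KO and 0.0982 in control. Aimp2, a scaffold of the aminoacyl-tRNA synthetase complex, was at 0 in Carm1 KO and 0.0145 in control cells. The mismatch repair gene Pms2, 117 bp from it, had 0.863 in Carm1 KO and 0.129 in control cells. Gm4890, a noncoding transcript, was at 0 in Carm1 KO and 0.102 in control, and its opposite gene Mmaa, of cobalamin metabolism, was the reverse, with 0.0959 in Carm1 KO and 0 in control. Whether the counting used the strand is not given in the sources used here, so signals of overlapping opposite genes may not be fully apart.

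Gene ends were measured apart from the rule, although in the same libraries. Of the 152 genes, 146 were in the table of transcription end sites (TES). Erap1, Lrrc28, Aldh3a2, Rps19bp1, Sept10 and 4930471M09Rik were not. Only 3 of the 146 could not be given a change. The noncoding 1700028E10Rik was at 0 in both conditions, Ssmem1 at 0 in Carm1 KO (0.343 in control), and LOC108167416 at 0 in control (0.447 in Carm1 KO). At their ends in Carm1 KO cells, 144 of the 146 genes were thus above 0. Nearly all genes were: of the 3025 genes found in both the TSS and the TES table, 3012 had end ratios above 0 in both conditions.

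End ratios of control-only genes were somewhat above those of the whole table in both conditions. Their median was 3.40 in Carm1 KO cells (quartiles 2.06 and 5.51) and 2.11 in control cells (quartiles 1.19 and 3.55), while all TES genes had medians of 2.99 in Carm1 KO and 1.71 in control cells. Of the 146 genes, 85 in Carm1 KO (58.2%) and 87 in control (59.6%) lay above the median of all genes. The Carm1 KO-only genes lay higher, with medians of 4.48 in Carm1 KO and 2.42 in control cells, and 67.2% in Carm1 KO and 63.8% in control cells were above the median of all genes. In control cells each of the 143 control-only genes with a change had a higher ratio at its end than at its start, and the median quotient of end over start was 59.5, against 20.7 for all genes. The low start values used by the rule enter both that quotient and that count, and the count over all genes is not given here.

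At their ends, most of these genes had the higher ratio in the Carm1 KO library, opposite to the direction that the rule fixed at their starts. At the TES, 115 of 143 genes had the higher ratio in Carm1 KO cells (80.4%), and the median log2(Carm1 KO / control) was 0.79, or 1.73-fold. All 3016 TES genes with a change had a median of 0.85, or 1.80-fold, and 84.3% were higher. At least 1.5-fold, 86 control-only genes were higher (60.1%, with 66.7% of all TES genes higher by that factor) and 10 were lower (6.99%, with 7.13% of all lower), while 47 lay between. Relative to the all-gene median, 21 were higher (14.7%, with 11.6% of all) and 38 were lower (26.6%, with 22.0% of all). The scaling between libraries is not given, so the uncentred majority cannot be told apart from a difference in scale. These shares are near those of the whole table.

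**Figure D3:**
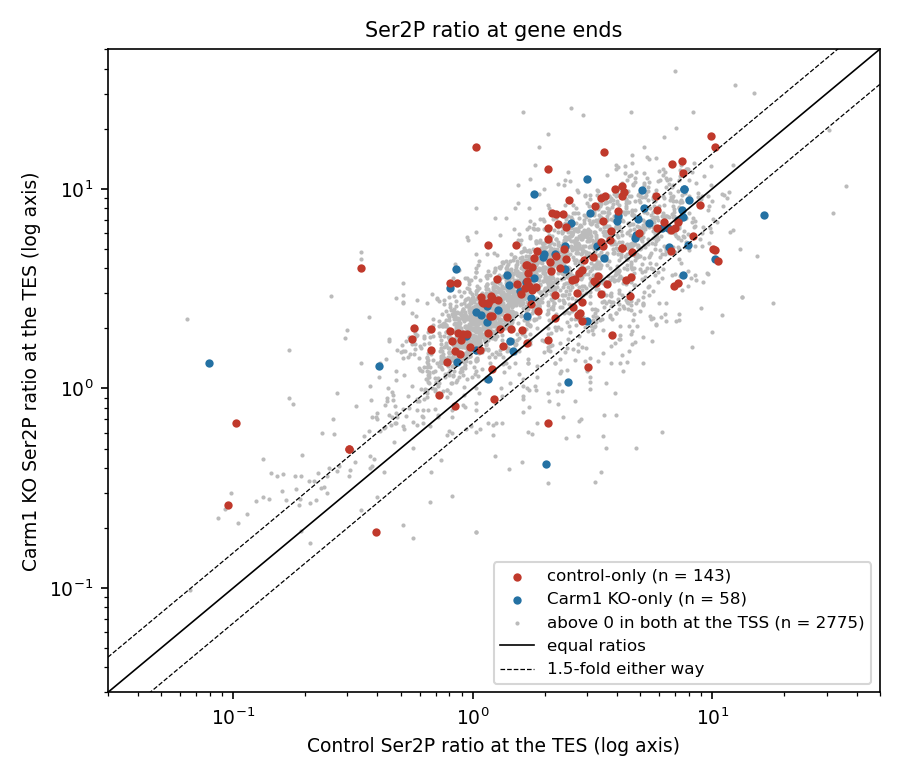
Carm1 KO against control Ser2P ratio at the TES (log axes) for 143 control-only genes, 58 Carm1 KO-only genes and 2775 genes above 0 in both at the TSS; the solid line marks equal ratios and the dashed lines 1.5-fold either way. Of the control-only points, 86 lie above the upper dashed line and 10 below the lower one, within the cloud of the other genes.

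Some ends differed widely. Rnf32 had a TES ratio of 16.1 in Carm1 KO and 1.03 in control cells (log2 change 3.97), the largest change in the set. EEF1AKMT4-ECE2 had 4.03 in Carm1 KO and 0.343 in control cells (3.55), and Tomt, a methyltransferase gene of hearing, 0.671 in Carm1 KO and 0.103 in control cells (2.71). For Isoc2b the values were 12.6 in Carm1 KO and 2.06 in control cells (2.61), and for Bet1, a SNARE of transport from the endoplasmic reticulum to the Golgi, 5.25 in Carm1 KO and 1.16 in control cells (2.18). Some of these end ratios lie on the coarse steps described above. The control end ratio of Rnf32 was the common value 1.03 itself, and the Carm1 KO end ratio of Tomt was the value 0.671. Other end ratios were exactly shared, such as 2.06 in control for Isoc2b, Mbd5 and Stk11. The part of the steps in these changes, and in the end ratios named below, was not tested. Rnf32 and Minpp1, whose TES ratio was 15.3 in Carm1 KO and 3.52 in control cells (2.12), also had the highest start ratios in control. Over the set, however, the control start ratio and the TES change were only weakly related (Spearman rho 0.15 across 143 genes, which share their libraries and the coarse steps). The 72 genes with the higher start ratios had a median change of 0.88 and the other 71 genes 0.76.

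The highest end ratios in Carm1 KO cells were those of Nrf1, a transcription factor gene for nuclear genes of mitochondrial function, with 18.3 in Carm1 KO and 9.84 in control cells. Rnf32 and the zinc finger gene Zfp148 both stood at 16.1, with control ratios of 1.03 for Rnf32 and 10.3 for Zfp148. Next were Minpp1 and Arl5a, a small GTPase gene of the Golgi, with 13.8 in Carm1 KO and 7.44 in control cells. In control cells Pkp4, a plakophilin gene of cell junctions, led with 4.33 in Carm1 KO and 10.6 in control cells, followed by Zfp148, Taf4b, Dpy19l1 and Nrf1.

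The genes at least 1.5-fold lower at the end were mostly long. Mbd5, a methyl-CpG-binding domain gene of 375898 bp, had 0.671 in Carm1 KO and 2.06 in control cells (log2 change -1.62). Its Carm1 KO end ratio was the value 0.671 used for the steps above. The part of the steps in its change was not tested. Pkp4, of 194359 bp, changed by -1.29 and Afg1l, a mitochondrial ATPase gene of 165981 bp, by -1.23. Tbc1d22a changed by -1.10, Rbm33 by -1.08, Taf4b, a subunit of the initiation factor TFIID, by -1.06, Dpy19l1, a C-mannosyltransferase gene, by -1.02 and Csnk1g3, a casein kinase gene, by -0.64. Shorter exceptions were Rnf103, a ubiquitin ligase gene of 16988 bp (-1.04), and the noncoding 1700101I11Rik of 1868 bp (-1.04).

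Control-only genes were longer than the table as a whole, and length moved with the end change. Their median length was 25268 bp, against 18141 bp for all annotated genes of the table and 20470 bp for Carm1 KO-only genes. When the compared genes were cut into 5 equal length groups, the median TES change of control-only genes was 0.96, 0.97, 1.06, 0.78 and -0.06 from shortest to longest, and that of all genes 0.88, 1.01, 1.01, 0.76 and 0.07. In the longest group, from 47814 bp, 17 of 33 control-only genes were below 0 and 8 were at least 1.5-fold lower, while 47.6% of all genes were below 0 and 25.7% lower by that factor. The medians of both sets followed the same order over the 3 longer groups.

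**Figure D4:**
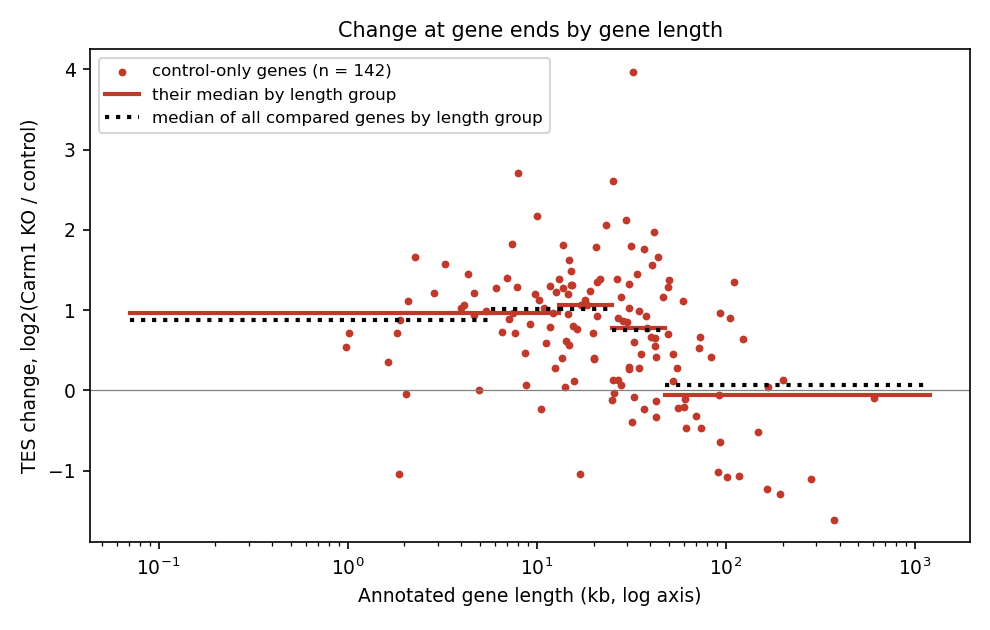
TES change, log2(Carm1 KO / control), against annotated gene length (log axis) for 142 control-only genes, with their median (solid) and that of all compared genes (dotted) in 5 length groups. In the longest group both medians are near 0 (-0.06 and 0.07).

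By function, control-only genes were spread over most of the table. Of 28 gene lists, defined by symbol, 20 held at least 1 of them. The lists covered 74 of the 152 genes (48.7%), against 50.3% of all genes of the table. The share of a list's genes above 0 in control that were listed at 0 in Carm1 KO cells, 5.05% over all genes, was 10.0% (6 of 60) for Pol II, Mediator, Integrator and elongation genes, 9.80% (5 of 51) for translation factors and tRNA synthetases, 7.53% (7 of 93) for vesicle trafficking, 7.50% (3 of 40) for ribosome biogenesis, 6.67% (6 of 90) for zinc finger factors, 6.41% (5 of 78) for signalling kinases and phosphatases and 6.25% (6 of 96) for ubiquitin enzymes. Predicted, RIKEN and antisense transcripts stood at 4.80% (12 of 250). It was lower for splicing factors (3.60%, 4 of 111), cell cycle genes (3.03%, 3 of 99), immediate early genes (1.79%, 1 of 56), chromatin modifiers (1.56%, 1 of 64) and replication and repair genes (1.33%, 1 of 75). No cytosolic ribosomal protein gene (0 of 73), nuclear pore gene (0 of 27), small RNA host (0 of 19), melanocyte gene (0 of 18), cleavage and polyadenylation gene (0 of 14), p53 target (0 of 11), Carm1 substrate or coactivator gene (0 of 11) or arginine methyltransferase gene (0 of 5) belonged to the set. Shares were highest in the small lists of interferon response (14.3%, 1 of 7) and antigen presentation genes (12.5%, 1 of 8). In lists this small neither 0 nor 1 member is read as a trait of the list. All these are counts with no test, several lists are small, and the translation list counts both Eef1akmt4 entries.

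**Figure D5:**
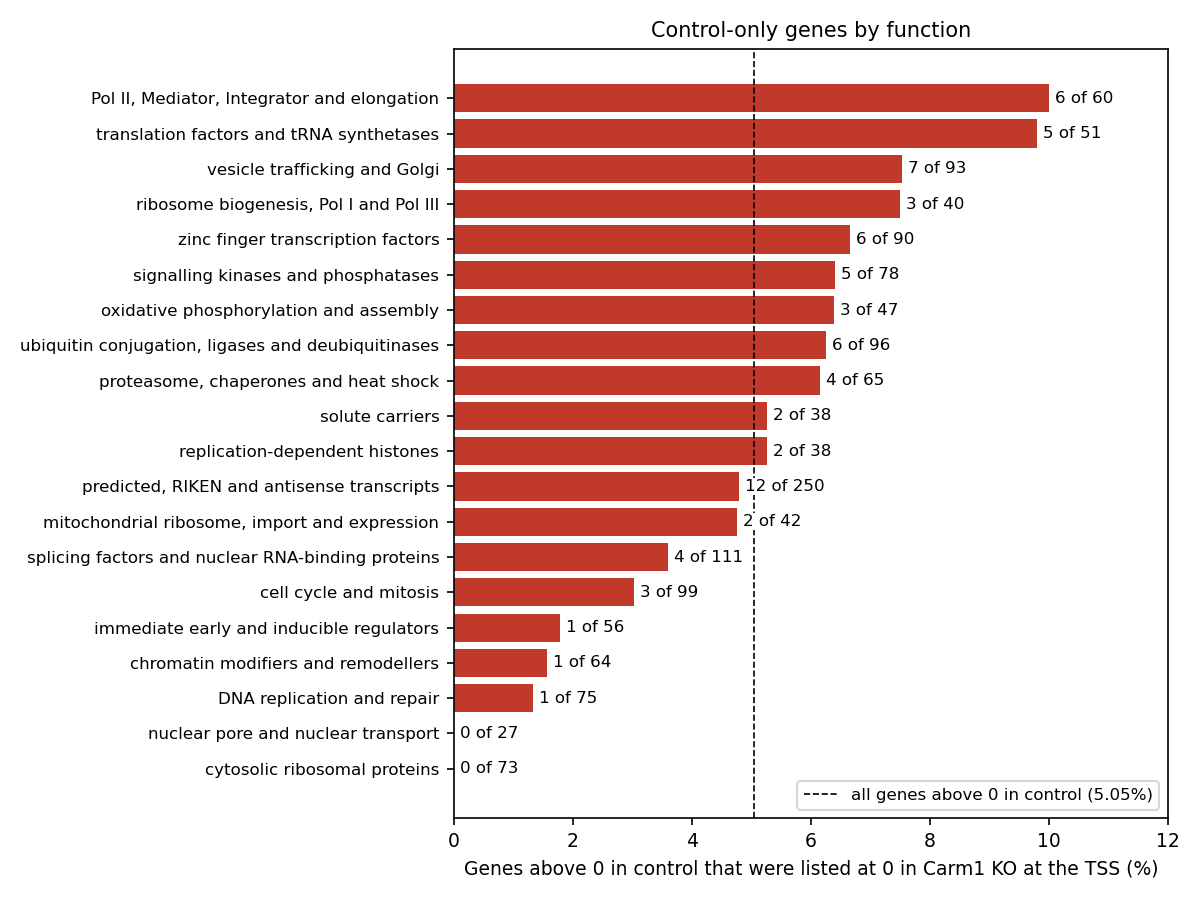
Percentage of genes above 0 in control that were listed at 0 at the start in Carm1 KO cells, for the 20 gene lists with at least 25 genes in the table; labels give counts and the dashed line the 5.05% of all such genes. The Pol II list is highest (6 of 60) and the nuclear pore and ribosomal protein lists are at 0.

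The 6 genes of the Pol II list were Taf5 and Taf4b, subunits of TFIID, Taf5l, Gtf2f1, the large subunit of TFIIF, and the Integrator genes Ints3 and Ints12, whose complex cleaves nascent small nuclear RNA and other transcripts. Ints3 was at 0 in Carm1 KO and 0.0668 in control at the start, with end ratios of 5.41 in Carm1 KO and 3.44 in control cells. Ints12 was at 0 in Carm1 KO and 0.0343 in control at the start, with 2.84 in Carm1 KO and 1.21 in control cells at the end. The 6 genes had a median TES change of 0.39, against 0.76 for all genes of the list. They ran from 1.28 at Gtf2f1 to -1.06 at Taf4b. The 5 members of the translation list had a median TES change of 1.44, against 0.83 for the whole list. The 2 largest changes were those of the Eef1akmt4 entries, which shared their start ratio and are uncertain as separate genes (3.55 for EEF1AKMT4-ECE2 and 1.82 for Eef1akmt4). Their product methylates an elongation factor. The others were Wars (1.44), Aimp2 (0.89) and Eif4enif1 (0.56). Wars, the cytosolic tryptophanyl-tRNA synthetase gene, had TES ratios of 5.60 in Carm1 KO and 2.06 in control cells.

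Some list members do not do what the list name says. Among the 5 kinase and phosphatase genes, Map2k3os is an antisense transcript, and its ratio of 0.0271 in control cannot be told apart from signal of Map2k3 without the strand setting. The others were Map2k2, a MAP kinase kinase of the ERK pathway (0.131 in control), Stk11, which encodes the AMPK activator LKB1 (0.0751), Csnk1g3 and Csnk1a1, casein kinases. Stk11 had TES ratios of 6.33 in Carm1 KO and 2.06 in control cells.

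Beyond the lists, roles were read from the symbols after the values were seen, and are given as description. Proteins of the endoplasmic reticulum, Golgi and lysosome accounted for 22 genes, with control start ratios from 0.00506 to 0.129. Examples are Derl2, Sec11a, of the signal peptidase, Cog4, a Golgi tethering gene, Mia3, a collagen export receptor, and Atp6v1d and Atp6v1h, of the proton pump. Of the 21 with a TES change 11 were higher at least 1.5-fold, 1 was lower and 9 lay between, beside 66.7% higher and 7.13% lower over all TES genes. Their median was 0.87. Mitochondrial proteins made up 12 genes, including Ndufs6 and Ndufaf3, of complex I and its assembly, Mrpl41 and Mrpl52, of the mitochondrial ribosome, and Dguok, which supplies deoxynucleotides for mitochondrial DNA. At the TES 7 were higher and 1 lower, with a median of 0.79. Dguok had 8.998 in Carm1 KO and 3.43 in control cells at its end.

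RNA processing and turnover was the role of 13 genes. They include Drosha, the nuclease that releases microRNA precursors, Adar, an RNA-editing deaminase, Usb1, which trims U6 RNA, and Exosc4, an exosome subunit. At their ends 8 were higher, 0 lower and 5 between, with a median change of 0.65. Drosha was at 0 in Carm1 KO and 0.0254 in control at its start, and had 8.24 in Carm1 KO and 3.24 in control cells at its end. The 11 genes of transcription initiation and sequence-specific factors had a median change of 0.80, with 7 higher and 1 lower. Among 9 genes of chromosomes, DNA repair and division (Ndc80, Ncapg of condensin, Mre11a of break repair, Ctc1 of telomere maintenance and others) 5 were higher and 0 lower, with a median of 0.70. The 6 genes grouped as signalling (Map2k2, Stk11, Csnk1a1, Csnk1g3, the tumour suppressor gene Nf2 and Cul1, a scaffold of ubiquitin ligases) had a median of 0.83, with 4 higher and 1 lower. Over all TES genes the median was 0.85, with 66.7% higher and 7.13% lower by the same factor. The remaining 79 genes were not grouped.

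The lowest members mark the edge of the rule. Atp6v1h was at 0.00506 in control, Mia3 at 0.00553, the interleukin receptor gene Il17rc at 0.00619, Ica1 at 0.00651, the collagen prolyl hydroxylase gene P4ha1 at 0.00717, Ndufs6 at 0.00729 and Afg1l at 0.00745. Just outside the rule were genes with the lowest Carm1 KO ratios above 0. Ints6 had 0.00597 in Carm1 KO and 0.00600 in control cells, Tfrc 0.00668 in Carm1 KO and 0.0206 in control cells, Sec61a1 0.00889 in Carm1 KO and 0.0135 in control cells, and Max 0.00945 in Carm1 KO and 0.0989 in control cells.

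The 59 Carm1 KO-only genes had a median start ratio of 0.141 in Carm1 KO cells and a range from 0.0101 to 1.34. Against all genes above 0 in Carm1 KO cells, whose median was 0.178, 40 of the 59 lay below the median, compared with 121 of the 152 control-only genes on the control scale. The ratio scales of the 2 conditions may differ, so values are read only within a condition. Gpr162, an orphan receptor gene, had 1.34 in Carm1 KO and 0 in control cells, Tcf4, a basic helix-loop-helix factor gene, 0.895 in Carm1 KO and 0 in control, and the amino acid transporter gene Slc3a2 0.503 in Carm1 KO and 0 in control. Styxl1, a pseudophosphatase gene, had 0.470 in Carm1 KO and 0 in control.

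At their ends both sets had medians above 0. The Carm1 KO-only genes had a median TES change of 0.68 over 58 genes, with 33 at least 1.5-fold higher (56.9%) and 6 lower (10.3%), while the control-only genes had 0.79, 60.1% and 6.99%. The extremes of the Carm1 KO-only set were Styxl1, with 1.34 in Carm1 KO and 0.0791 in control cells (log2 change 4.09), and Tead4, a partner of the Hippo effector YAP, with 0.416 in Carm1 KO and 2.03 in control cells (-2.29). Rpl19, of the large ribosomal subunit, was the 1 cytosolic ribosomal protein gene in either set, with 0.173 in Carm1 KO and 0 in control cells at its start and end ratios of 1.86 in Carm1 KO and 0.919 in control cells.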

How the data were processed

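Per the labels' protocols, 3 sets of B16F10 cells per condition were pooled after nuclease digestion and sequenced as 4 libraries. The submitters' processing notes name cutadapt 1.18, TopHat2 2.1.1, mm10 and GRCm38 without settings. The authors deposited 2 tables, for TSS and TES, with a linear ratio per gene and condition (called a Ser2 fraction per the file headers, though values exceed 1). Another deposited column, the authors' difference of Carm1 KO minus control, was not used further. The sources used here do not give the divisor, windows, strand setting, scaling or gene choice. Columns were assigned to conditions by name. No column belonged to another sample.

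Genes were selected on exact zeros. The TES change was the log2 ratio of Carm1 KO over control, without a pseudocount, for genes above 0 in both conditions, and a call was a 1.5-fold difference (0.58 on the log2 scale). The code for selection and calls was run on simulated rows with planted zeros and noise-free changes, which it recovered. That checks the code only, not what the zeros in these data stand for. Symbols matched GENCODE M21 for 3072 of 3112 genes without regard to case. Promoters were RefSeq entries nearest the annotated start. Chromosome 18 was left out, so its genes have no promoter here. Python 3.11.15, pandas 2.3.3 and numpy 2.4.6 were used.

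Members and lists were chosen with earlier results of these data known. Named genes were the highest and lowest by control start ratio, the extremes at the TES, up to 4 of each list, missing or zero TES genes and genes sharing a start; the pairs of opposite genes, the genes just outside the rule, and roles beyond the lists were chosen after their values were seen. Predicted genes are named only as examples. Depth is unknown.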

Additional observations from a re-analysis of the deposited data

How the results depend on the processing

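Of 23 recomputed values, 15 stayed within the interval or factor used here (for a median, the 95% interval from its order statistics over genes; for a count, 1.5 times) and 8 moved, none changing sign. In 1 setting the count of control-only genes could not move. It admitted Carm1 KO ratios up to the lowest control ratio above 0 (0.00155), below the lowest Carm1 KO ratio above 0 (0.00597). Median TES changes relative to all TES genes differ from the plain medians by a constant, and so repeat their outcomes. Requiring a control ratio at or above the median of genes above 0 left 31 control-only genes, and requiring the lower quartile gave a median control ratio of 0.0844; both follow from the construction. Without control-only genes that have another gene within 1 kb of the start, the median TES change was 0.60 (main value 0.79). Relative to all TES genes it was -0.25 (main value -0.06). That filter was not applied to the all-gene median, so the 2 sides of this comparison differ, and the cause was not tested. A pseudocount of 1 gave 0.55, since it shrinks low ratios. Relative to the all-gene median, 21 control-only genes were higher and 38 lower, and at 2-fold 54 were higher. Leaving out genes whose start ratio was 1.03 over a whole number, an alternative chosen after seeing the data, gave a median TES change of 0.93. No paired analysis was possible because each condition has 1 library per antibody, which also prevented leaving out replicates. The unknown depth limits every value of 0.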

Other observations

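The 42 genes listed at 0 at the start in both conditions were not part of either set. They include Eif5a, Srf, Xbp1, an effector of the unfolded protein response, Sirt3, a mitochondrial deacetylase gene, and Ipo5, a nuclear import receptor gene. Of the 36 with a TES change, 27 were higher in Carm1 KO cells by 1.5-fold or more and 1 was lower, where 66.7% of all TES genes were higher and 7.13% lower, with a median log2 change of 0.99 and TES medians of 3.68 in Carm1 KO and 1.79 in control cells. Their median gene length was 23032 bp.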
